A study of Homo sapiens with 40 samples.

Results

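Pellet extract (PE) and chromatin-bound nuclear extract (CBNE) of undifferentiated cells were compared as total RNA, 2 libraries each, to ask which RNAs stayed in the last pellet of a fractionation and which were released with nuclease-cut chromatin. Both extracts came from H1 cells (a human embryonic stem cell line, long established), labelled WT for genotype, grown in mTeSR1 medium on matrigel and taken on day 0, before any differentiation. PE and CBNE cells share line, medium and day, and the labels list no other treatment for either. The cells passed through successive buffers of a protein fractionation kit, which removed cytoplasmic (CE), membrane (ME) and soluble nuclear (SNE) extracts first. CBNE is what nuclear buffer with calcium chloride and micrococcal nuclease then released, and PE is what the pellet extraction buffer took from the remainder, called the cytoskeletal extract by the submitters. The series holds 40 libraries, 36 of total RNA, of which the 4 compared here are day 0 PE and CBNE. Of 57939 genes in the total RNA table, 3409 (5.88%) had a mean of at least 30 TPM over these 4 libraries and were kept. TPM scales the reads of a gene by its transcript length and then to a fixed total per library, so each value is a share of its library, and a lower share cannot be told apart from more of something else, nor fewer cells from less RNA per cell. The labels do not say that the 2 libraries of a group came from separate cultures, so a p-value here measures the spread between libraries, which may be technical.

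RNA that remains with chromatin after soluble nuclear contents are removed includes transcripts still being made or held at their genes, together with noncoding RNAs that act in the nucleus. Micrococcal nuclease needs calcium and cuts DNA and RNA that proteins do not cover, so short RNAs folded into protein complexes can outlast it. The material left after salt, detergent and nuclease is rich in cytoskeleton, nuclear lamina and large aggregates, and organelle remnants can sediment with it.

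These were the shallowest extracts of day 0. TPM times transcript length falls on steps of a common size where whole reads were counted. At the step that matched best, 58.9% and 59.6% of low values in PE and 53.8% and 51.9% in CBNE lay within 0.05 of a whole number, so read numbers here are estimates. By them PE libraries held an estimated 47216 and 37037 gene reads and CBNE libraries 34747 and 28607, against 953205 to 1815620 in the other day 0 libraries. One read on a 1 kb transcript was worth 25.4 and 30.8 TPM in PE and 33.7 and 39.3 TPM in CBNE. The median kept gene rested on about 11.4 reads over the 4 libraries, and 368 kept genes rested on 40 or more. Pearson's r across the 3409 genes was 0.65 between the PE libraries and 0.64 between the CBNE libraries, against 0.39 to 0.50 between a PE and a CBNE library. Among 10 markers of embryonic stem cells 8 were above 0 in all 4 libraries, with summed levels of 2085 and 1728 TPM in PE and 2346 and 2221 TPM in CBNE. SOX2 was listed at 0 in all 36 libraries. Mesoderm, neural and endoderm markers (8 genes) summed to at most 38.2 TPM in a library. Of 4 fibroblast markers 3 were above 0 in all 4 libraries, with sums of 307 and 267 TPM in PE and 318 and 228 TPM in CBNE. Most of each sum was COL1A1, with 240 and 202 TPM in PE and 270 and 182 TPM in CBNE, while COL3A1 was at most 5.12 TPM.

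By limma on log2(TPM + 1), with a Benjamini-Hochberg adjusted p under 0.05 and a difference of at least 1 on the log2 scale, 132 genes were higher in PE than in CBNE (3.87% of those tested) and 694 were lower (20.4%). All differences given here are PE minus CBNE on that scale, with the standard error after ±, and "called" means past both thresholds. Without a test, 243 genes (7.13%) had both PE libraries above both CBNE libraries and a difference of 1 or more, and 872 (25.6%) had both below. The split turned with level. Among 2513 genes at 30 to 100 TPM, 61 were called higher and 561 lower, whereas among 210 genes at 300 TPM or more 33 were called higher and 13 lower. The difference of the median kept gene was -0.31, and scaling all libraries to a common median moved it to 0.08 and the calls to 276 higher and 329 lower. The calls rest on both PE libraries: 22 genes were called higher and 2 lower without PE replicate 1, and 13 and 0 without PE replicate 2, against 161 to 183 higher and 271 to 275 lower without either CBNE library. Without PE replicate 2 the count at an unadjusted p under 0.05 and a difference of 1 was 163 higher and 676 lower. Of the 90 genes with a call among those named for this comparison, 89 lost it without PE replicate 1 and 90 without PE replicate 2, and 32 kept it under every other setting that tested them, apart from testing all genes above 0 and leaving out a library.

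The makeup of the extracts differed most in RNA of the mitochondrial genome and in a single unclassified transcript. Mitochondrial mRNA took 19.4% and 19.5% of summed TPM in PE, against 5.64% and 7.59% in CBNE. The annotation class TEC, transcripts that still await experimental support, here mostly AL357562.1, took 1.27% and 1.37% in PE, against 9.47% and 9.48% in CBNE. Small nucleolar RNA, nearly all U3, took 10.4% and 11.3% in PE, against 15.3% and 15.0% in CBNE. Pseudogenes took 3.25% and 2.87% in PE, against 4.37% and 4.12% in CBNE. The gap in a single processed pseudogene, AC018638.5, given below, was at least as large as that of the class. By gene, 97 processed pseudogenes were kept, with 9 called higher, 2 lower and a median difference of 0.61. The 34 kept transcribed unprocessed pseudogenes had 0 called higher, 15 lower and a median of -1.13. Long noncoding RNA took 10.2% and 11.1% in PE, against 9.08% and 9.88% in CBNE. A large part of it in each library was FP236383.3 and FP671120.4 of the ribosomal DNA repeats, given below. By gene, 284 lncRNAs were kept, with 16 called higher, 54 lower and a median difference of -0.55. All 3409 kept genes had 132 called higher, 694 lower and a median of -0.31. Genes annotated as miRNA precursors took 8.77% and 12.1% in PE, against 6.74% and 7.94% in CBNE. A large part of these was CR392039.1, MIR3648-2 and MIR4787. In each of these 6 RNA classes the libraries of the extracts did not overlap on day 0. A two-sided exact permutation test gave p = 0.333 for each, the smallest that 2 libraries against 2 allow. Genes annotated as rRNA, at 0.100% and 0.0808% in PE and 0% in both CBNE libraries, also did not overlap. The classes misc_RNA (7SL and others), snRNA, and mitochondrial tRNA and rRNA overlapped. Nuclear protein-coding RNA overlapped, with 38.1% and 32.7% in PE, against 41.4% and 36.9% in CBNE. Once mitochondrial genes were left out of the totals, its mean was 1.98 percentage points higher in PE rather than 3.77 lower. On days 3 and 5 mitochondrial mRNA, TEC and snoRNA separated in the same direction as on day 0. The miRNA genes went the other way on both days, with 5.68% and 8.10% in PE, against 14.8% and 20.0% in CBNE, on day 3. Long noncoding RNA and pseudogenes overlapped on day 3. On day 5 lncRNA was lower in PE, at 6.89% and 7.29%, against 11.8% and 10.5% in CBNE, and pseudogenes were again lower in PE.

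**Figure D1:**
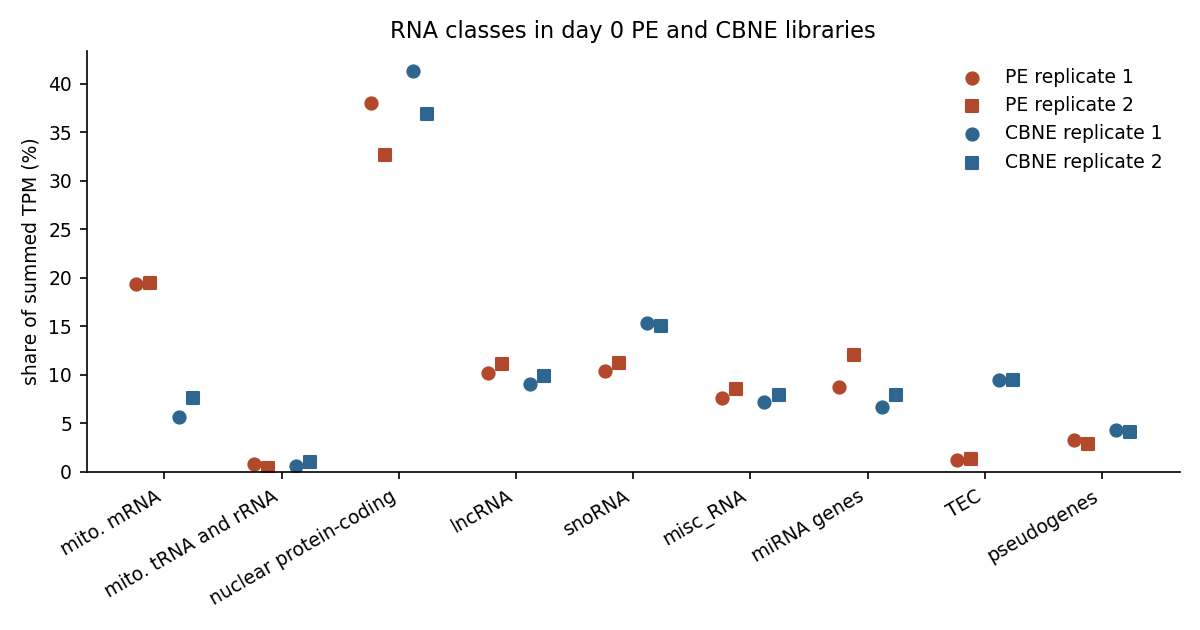
Share of each RNA class in the summed TPM of each library, in percent, with PE (red) left of CBNE (blue) and a marker for each replicate. Mitochondrial mRNA lies near 19.4% in PE and at 5.64% and 7.59% in CBNE, and TEC lies near 1.3% in PE and 9.5% in CBNE.

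The mitochondrial genome encodes 13 subunits of the respiratory chain, and all 13 mRNAs were kept. Of these 10 (76.9%) were called higher in PE and 0 lower, against 3.87% and 20.4% of all kept genes. Their median difference was 1.83. Cytochrome oxidase subunit MT-CO1 had 45974 and 49256 TPM in PE, against 9516 and 14794 TPM in CBNE, a difference of 2.00 ± 0.27 (adjusted p = 0.0127). Cytochrome b, MT-CYB, had 12297 and 13502 TPM in PE, against 2957 and 3309 TPM in CBNE (2.04 ± 0.22, adjusted p = 0.0127). The complex I subunits MT-ND4 and MT-ND1 differed by 1.97 ± 0.23 and 1.94 ± 0.25. For each of these 4 mRNAs both PE libraries stood above both CBNE libraries. Without any 1 of the 4 libraries the difference of MT-CO1 ran from 1.69 to 2.32 and the median of the 13 from 1.69 to 1.99, so the calls were lost without a PE library while the difference stayed about as large.

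MT-ATP8, a short subunit of ATP synthase, had the largest difference of the 13, with 3069.8 and 3275 TPM in PE, against 489 and 570.0 TPM in CBNE (2.58 ± 0.22, adjusted p = 0.0105). Its gene shares its last 46 bases with the start of MT-ATP6, and the sequence is shown because a read inside the shared stretch can be counted for either gene. The 207 bases lie at chrM:8366-8572 (GRCh38, plus strand, from GENCODE 29), with the stretch shared with MT-ATP6 in capitals.
MT-ATP8: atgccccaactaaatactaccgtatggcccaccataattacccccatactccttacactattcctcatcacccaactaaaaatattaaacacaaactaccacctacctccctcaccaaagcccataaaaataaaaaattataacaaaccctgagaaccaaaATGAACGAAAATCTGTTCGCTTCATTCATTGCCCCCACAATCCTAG

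The 3 mitochondrial mRNAs that were not called were also complex I subunits. MT-ND5 had 10507 and 9846 TPM in PE and 10090.4 and 13631 TPM in CBNE (-0.21 ± 0.24). MT-ND3 had 2424 and 2048 TPM in PE and 1365 and 2501 TPM in CBNE (0.27 ± 0.34). MT-ND6, encoded on the opposite strand to the other mRNAs, had 6197 and 3345 TPM in PE and 2377 and 2922 TPM in CBNE (0.79 ± 0.34). PE and CBNE overlapped for MT-ND5 and MT-ND3, while both PE libraries were above CBNE for MT-ND6. The larger ribosomal RNA of the organelle was lower in PE, unlike the mRNAs, and MT-RNR2 had 163 and 178 TPM in PE, against 757 and 1639.8 TPM in CBNE (-2.70 ± 0.39, adjusted p = 0.0133). The serine transfer RNA MT-TS1, estimated at 14 reads in all, had 737 and 893 TPM in PE, against 2444 and 2850.1 TPM in CBNE (-1.70 ± 0.24). Transfer RNAs and ribosomal RNAs of the organelle together had 18 of 24 genes kept, with 3 called higher and 3 lower. The 3 called higher, MT-TG, MT-TM and MT-TD, rested on an estimated 2 to 3 reads each in PE and were listed at 0 in both CBNE libraries, and with a filter at 100 TPM 0 were called higher and 2 lower.

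In the other day 0 extracts the same mRNAs were most abundant in ME, the membrane extract. MT-CO1 averaged 47615 ± 2321 TPM in PE and 12155 ± 3732 in CBNE, beside 86319 ± 240.2 in ME, 37189.7 ± 629.9 in SNE and 2637 ± 193 in CE (SD, n = 2). The PE share of mitochondrial mRNA, 19.4% ± 0.09, was close to that of SNE, 19.3% ± 0.34, and of unfractionated RNA, 19.5% ± 0.24, while CBNE had 6.61% ± 1.38, ME 57.9% ± 1.53 and CE 1.51% ± 0.10 (SD, n = 2 each).

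**Figure D2:**
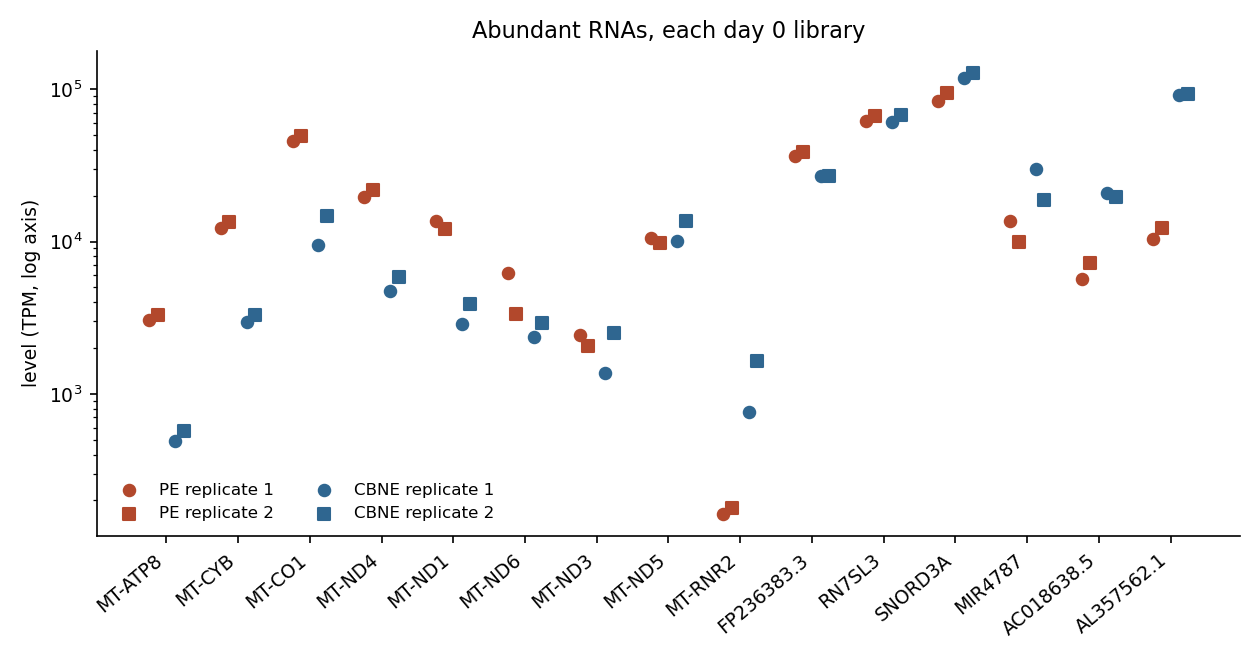
Level in TPM, on a log axis, of 15 RNAs in each day 0 library, with PE (red) left of CBNE (blue) for each RNA. From MT-ATP8 to MT-ND1 the PE libraries lie above CBNE, MT-ND5 and RN7SL3 overlap, and AL357562.1 lies at 10351 and 12294 TPM in PE and at 91286 and 92935 TPM in CBNE.

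A single transcript that separated the extracts widely was AL357562.1, a gene of chrX:122242008-122242616 on the plus strand of GRCh38 with 1 annotated transcript, no gene overlapping it and no assigned function. It had 10351 and 12294 TPM in PE, against 91286 and 92935 TPM in CBNE, a level 8.14 times as high in CBNE (-3.03 ± 0.21, adjusted p = 0.0105), on an estimated 3578 reads. Outside these extracts it was low, at 1807 ± 18.1 TPM in SNE, a mean of 351 in ME, 195 ± 36.4 in CE and 197 ± 5.34 in unfractionated RNA (SD, n = 2). Of its 609 bases 353 aligned to transcripts of 5 other genes, so reads there can be shared. Its last 300 bases (chrX:122242317-122242616, GRCh38, plus strand, from GENCODE 29) are shown because this RNA made up over 9% of CBNE, with bases that aligned to no other annotated transcript in capitals.
AL357562.1: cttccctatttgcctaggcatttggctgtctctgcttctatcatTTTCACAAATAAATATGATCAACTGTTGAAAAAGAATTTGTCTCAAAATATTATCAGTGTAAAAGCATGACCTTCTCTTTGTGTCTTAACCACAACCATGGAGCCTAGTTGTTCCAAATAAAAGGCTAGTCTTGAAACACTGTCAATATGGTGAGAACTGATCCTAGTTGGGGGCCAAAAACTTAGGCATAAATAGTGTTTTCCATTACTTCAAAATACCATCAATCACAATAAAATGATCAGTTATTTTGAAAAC

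The abundant short RNAs U3 and 7SL were not called on day 0. U3 small nucleolar RNA guides cleavage of the ribosomal RNA precursor in the nucleolus. Its main gene SNORD3A had 83564 and 93803 TPM in PE, against 118672 and 127952 TPM in CBNE (-0.48 ± 0.20, adjusted p = 0.129), which did not pass, although both PE libraries were below CBNE. The copies SNORD3C (-0.21 ± 0.31), SNORD3B-2 (-0.30 ± 0.28) and SNORD3B-1 (-0.95 ± 0.27) are 98.1% to 99.8% identical to SNORD3A over their aligned length, so reads could be split among them, and none was called. The 4 genes had a median of -0.39, which became 0.0053 with a common median, and with quantile normalisation 1 of them was called lower. RN7SL3, a gene of the 7SL RNA that forms the core of the signal recognition particle, had 62058 and 66777 TPM in PE, against 60811 and 67876 TPM in CBNE, a difference of 0.00 ± 0.20, and the libraries overlapped. 7SL genes RN7SL1 and RN7SL2, 7SK RNA (RN7SK), RMRP and RPPH1 were listed at 0 in all 36 libraries, which can be a failure to assign reads, so nothing is drawn from them. The lists of other snoRNAs were drawn by gene name, and all their 300 box C/D and 206 H/ACA genes were listed at 0 in these 4 libraries. They do not hold every snoRNA. By annotated type 8 snoRNA genes were kept, and 1 of them, outside all these lists, was called lower.

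Genes of the 45S ribosomal DNA repeats on the short arm of chromosome 21 were abundant in both extracts. FP236383.3, whose span covers a 5.8S ribosomal RNA gene, had 36158 and 38821 TPM in PE, against 26749.9 and 27076 TPM in CBNE (0.48 ± 0.20, adjusted p = 0.13). FP671120.4, 99.6% identical to it over 924 aligned bases, had 17872 and 36656 TPM in PE and 15605 and 26738 TPM in CBNE, so reads of the pair cannot be told apart. MIR3648-2, a precursor gene in the repeat, had 15392 and 27731 TPM in PE and 14805 and 7211 TPM in CBNE, and the nearby CR392039.1 had 42086 and 72737 TPM in PE and 12719 and 45779 TPM in CBNE. None of these was called. RNA5-8SN1, a 5.8S ribosomal RNA gene on the same chromosome, was called higher, on an estimated 9 reads. It had 831 and 806 TPM in PE and was listed at 0 in both CBNE libraries. Its difference of 9.68 ± 0.38 (adjusted p = 0.000868) thus depends on the pseudocount. PE and CBNE overlapped for CR392039.1 and FP671120.4, and both PE libraries were above CBNE for FP236383.3 and MIR3648-2. AC018638.5, a processed pseudogene at chr7:128653969-128654722 with 11 other genes at least 90% identical over 500 aligned bases or more, was called lower, with 5697 and 7233 TPM in PE, against 20938 and 19613 TPM in CBNE (-1.66 ± 0.23, adjusted p = 0.0127).

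MIR4787, an 84-base precursor gene with 79.8% G and C, had 13617 and 9904 TPM in PE, against 30119.6 and 18729 TPM in CBNE (-1.03 ± 0.31, adjusted p = 0.0569), lower in both PE libraries but not called. These were not small RNA libraries, so the value is of reads on the precursor gene and not of mature miRNA. Its mature arms from RefSeq (GRCh38.p14, chromosome 3) are shown with the seed, bases 2 to 8, in capitals, to show which RNA the precursor carries.
hsa-miR-4787-5p: gCGGGGGUggcggcggcauccc
hsa-miR-4787-3p: gAUGCGCCgcccacugccccgcgc

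Histone mRNAs of the replication-dependent kind are made in S phase and lack a polyA tail, ending in a small hairpin. As a list they leaned toward PE. Of 64 histone genes 43 were kept, 9 were called higher (20.9%) and 1 lower (2.33%), against 3.87% and 20.4% of all kept genes. Their median difference was 1.28, against -0.31 for all kept genes. Of those called higher, H4C6, H4C9 and H3C1 were listed at 0 in both CBNE libraries, on an estimated 7, 13 and 4 reads. They passed the level filter through PE alone, so their differences of 8.28, 7.14 and 6.90 depend on the pseudocount. Among 6 histone genes with 40 or more estimated reads 0 were called. The H2A gene H2AC14 had 722 and 796 TPM in PE, against 87.2 and 102 TPM in CBNE (3.00 ± 0.23, adjusted p = 0.0105). H2AC13 had 758 and 980.1 TPM in PE, against 201 and 391 TPM in CBNE (1.62 ± 0.36), the linker histone gene H1-5 had 597 and 543 TPM in PE, against 198 and 231 TPM in CBNE (1.41 ± 0.22), and H2BC9 had 197 and 165 TPM in PE, against 49.1 and 57.3 TPM in CBNE (1.75 ± 0.25). All 3 were separated in the same direction. The abundant H2BC12 had 2268 and 2426 TPM in PE and 2125 and 1032 TPM in CBNE (0.66 ± 0.37), separated but not called. H2BC14, on 8 estimated reads, was the single member called lower, with 133 and 80.9 TPM in PE, against 266 and 206 TPM in CBNE. Histone genes are near-identical within each family, so the share of each gene is uncertain, while the sum is less so: all 64 summed to 1.72% and 1.74% of PE, against 1.01% and 0.82% of CBNE. In the cytoplasmic extract they summed to 12.9% and 12.4%. The histone sum was thus higher in both PE libraries than in both CBNE libraries. The number of members called higher was 20 when all 36 libraries shared the variance estimate, and 0 and 1 without PE replicate 1 and 2.

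Cytosolic ribosomal proteins had calls in both directions. Of 70 ribosomal protein genes kept, 8 were called higher and 4 lower, with a median difference of 0.56. These are 11.4% and 5.71%, against 3.87% and 20.4% of all kept genes. RPS15, of the small subunit, had 773 and 836 TPM in PE, against 189 and 221 TPM in CBNE (1.97 ± 0.22, adjusted p = 0.0127). RPL13A had 668 and 583 TPM in PE, against 284 and 207 TPM in CBNE (1.36 ± 0.25), RPL13 1.28 ± 0.22 and RPL19 1.10 ± 0.24. The 4 called lower were RPL34, with 54.2 and 50.1 TPM in PE, against 243 and 208 TPM in CBNE (-2.09 ± 0.24), RPS29 (-1.35 ± 0.25), RPL7L1 (-1.22 ± 0.27) and RPL14 (-1.0 ± 0.23). RPL7L1 is a paralogue of RPL7 and works in ribosome assembly. With a common median 21 ribosomal protein genes were called higher and 1 lower, so how many were called turned on the scaling while the median stayed above 0. Translation factors had 18 kept genes, with EIF4A2 (1.47 ± 0.28) called higher and EIF2S3 (-1.42 ± 0.37) lower, and their median of 0.10 became -0.11 without PE replicate 1 and -0.06 without CBNE replicate 2.

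Glycolytic enzymes had 7 kept genes, 2 called higher (28.6%) and 0 lower, against 3.87% and 20.4% of all kept genes. With a common median and with quantile normalisation 1 was called higher and 0 lower. Glyceraldehyde-3-phosphate dehydrogenase, GAPDH, had 1080.0 and 1101 TPM in PE, against 379 and 486 TPM in CBNE (1.34 ± 0.23, adjusted p = 0.0159), and enolase ENO1 78.0 and 99.6 TPM in PE, against 37.0 and 49.6 TPM in CBNE (1.02 ± 0.29). AC006064.4, a noncoding gene at chr12:6537794-6538370 read against the GAPDH gene, went the other way, with 44.1 and 53.4 TPM in PE, against 409 and 613 TPM in CBNE (-3.34 ± 0.29, adjusted p = 0.0105). Its 422-base transcript aligned to a GAPDH transcript over 230 bases at 100% identity, and the sources used here do not state that counting used strand, so reads of the pair cannot be told apart.

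The submitters call the pellet extract cytoskeletal, and the calls among structural genes of the cytoskeleton turned on the scaling. Of 19 actin cytoskeleton genes kept, 1 was called higher and 1 lower, 5.26% each, against 3.87% and 20.4% of all kept genes. Their median was 0.29. With a common median 6 were called higher and 0 lower, where 276 of all 3409 genes were called higher. With totals that leave out mitochondrial and structured RNA 5 were called higher and 1 lower. Gamma actin, ACTG1, had 564 and 579.5 TPM in PE, against 277 and 269 TPM in CBNE (1.06 ± 0.21, adjusted p = 0.0207), and the tropomyosin TPM4 77.7 and 68.5 TPM in PE, against 202 and 171 TPM in CBNE (-1.34 ± 0.24). Beta actin, ACTB, had 339 and 365 TPM in PE, against 189 and 199 TPM in CBNE (0.86 ± 0.22, adjusted p = 0.0362), below the size threshold. Of 9 tubulin genes and microtubule partners MAP4 (-1.31 ± 0.26) was called lower and 0 higher, although the list had a median of 0.85. With a common median and with quantile normalisation 1 was called higher and 0 lower, and the median was 0.05 without CBNE replicate 1. Of 10 intermediate filament and linker genes 0 were called higher, or 2 with a common median, with vimentin (VIM) at 98.0 and 85.8 TPM in PE and 54.2 and 75.8 TPM in CBNE and the linker plectin (PLEC) at 506 and 436 TPM in PE and 338 and 273 TPM in CBNE (0.62 ± 0.24, adjusted p = 0.102). These values are of mRNA and say nothing of the proteins in the extract.

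The nuclear lamina, matrix and pore list had 12 genes kept, 0 called higher and 3 lower, and its median of -0.28 was close to the -0.31 of all kept genes, of which 20.4% were called lower. Lamin B1, LMNB1, a filament of the inner nuclear membrane, had 39.6 and 42.9 TPM in PE, against 178 and 196 TPM in CBNE (-2.15 ± 0.24, adjusted p = 0.0127). TMPO, which binds lamins, differed by -1.32 ± 0.26 and the pore protein gene NUP98 by -1.53 ± 0.34. Among 21 chromatin regulators 0 were called higher and 5 lower (23.8%), again near the share of all kept genes. They were SUZ12 of the Polycomb complex PRC2, with 34.9 and 22.1 TPM in PE, against 88.5 and 91.5 TPM in CBNE (-1.66 ± 0.31), ARID1A (-1.36 ± 0.27) and SMARCC1 (-1.23 ± 0.28) of SWI/SNF remodellers, the histone methyltransferase SETD2 (-1.34 ± 0.30) and the 5-methylcytosine oxidase TET1 (-1.12 ± 0.27). The medians of both lists, -0.28 and -0.11, became 0.11 and 0.29 with a common median, where 2 and 1 members were called lower and 1 and 0 higher.

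Splicing factors and nucleolar proteins held calls both ways. Of the first list 20% were called higher and 8% lower, and of the second 9.09% and 18.2%. Among all kept genes the shares were 3.87% and 20.4%, so lower calls were no more frequent in either list. Of 25 SR protein and hnRNP genes kept, 5 were called higher: TRA2B (1.51 ± 0.41), HNRNPA2B1 (1.45 ± 0.31), SRSF11 (1.37 ± 0.37), HNRNPK (1.25 ± 0.32) and SRSF1 (1.09 ± 0.28). HNRNPA2B1 had 326 and 191 TPM in PE, against 93.0 and 88.1 TPM in CBNE. Called lower were TRA2A, a paralogue of TRA2B, with 86.7 and 57.6 TPM in PE, against 214 and 208 TPM in CBNE (-1.56 ± 0.28), and HNRNPC (-1.35 ± 0.30). Among 11 nucleolar proteins nucleolin, NCL, had 654 and 544 TPM in PE, against 166 and 150.2 TPM in CBNE (1.91 ± 0.23, adjusted p = 0.0127). Nucleophosmin, NPM1, had 142 and 112 TPM in PE, against 331 and 316 TPM in CBNE (-1.36 ± 0.24, adjusted p = 0.0161), and the box C/D snoRNP core protein NOP58 70.3 and 70.6 TPM in PE, against 204 and 239 TPM in CBNE (-1.64 ± 0.23). NCL was thus separated upward and NPM1 and NOP58 downward.

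Long noncoding RNAs were not uniform either. MALAT1, which gathers in nuclear speckles, had 3832 and 2467 TPM in PE, against 1471 and 1167 TPM in CBNE (1.23 ± 0.30, adjusted p = 0.0322). NORAD, which is mainly cytoplasmic and binds Pumilio proteins, had 114 and 139 TPM in PE, against 37.9 and 44.2 TPM in CBNE (1.6 ± 0.26). The paraspeckle RNA NEAT1 had 61.4 and 36.5 TPM in PE and 29.6 and 25.9 TPM in CBNE (0.75 ± 0.34, adjusted p = 0.156) and was not called. FIRRE, an X-linked RNA that stays near its gene, had 39.1 and 32.1 TPM in PE, against 98.9 and 67.9 TPM in CBNE (-1.19 ± 0.30), and PVT1 75.2 and 60.2 TPM in PE, against 142 and 141 TPM in CBNE (-1.06 ± 0.25). The 9 kept genes of a list drawn up as nuclear lncRNAs thus held 2 called higher and 2 lower, with a median of -0.63. That is 22.2% each way, against 3.87% called higher and 20.4% lower among all kept genes. One of the 2 called higher was NORAD, which averaged 1422 ± 7.76 TPM in CE and 361 ± 16 TPM in SNE (SD, n = 2), so the name of the list does not describe it. Both lower calls depended on the processing. With a common median 3 genes were called higher and 0 lower. The counts were 2 higher and 0 lower with quantile normalisation, with totals that leave out mitochondrial and structured RNA, and without CBNE replicate 1, where the median was -0.25. MALAT1, NORAD and NEAT1 were above CBNE in both PE libraries, and FIRRE and PVT1 were below it in both.

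Of 11 kept snoRNA host transcripts, whose introns carry small nucleolar RNAs, 3 were called higher and 2 lower. These are 27.3% and 18.2%, against 3.87% and 20.4% of all kept genes. SNHG1 had 188 and 196 TPM in PE, against 43.0 and 10.0 TPM in CBNE (3.13 ± 0.70, adjusted p = 0.0369), ZFAS1 106 and 68.4 TPM in PE, against 19.2 and 26.9 TPM in CBNE (1.86 ± 0.34) and SNHG14 differed by 1.73 ± 0.46. Called lower were SNHG16, with 57.0 and 44.7 TPM in PE, against 182 and 135 TPM in CBNE (-1.62 ± 0.28), and SNHG5 (-1.09 ± 0.26). GAS5 had 311 and 117 TPM in PE and 74.5 and 31.6 TPM in CBNE (1.96 ± 0.64, adjusted p = 0.0898), separated but not called. Among 8 kept lncRNAs typical of embryonic stem cells 3 were called higher. ESRG, the most abundant of these 3, had 986 and 645 TPM in PE, against 244 and 279.6 TPM in CBNE (1.61 ± 0.28, adjusted p = 0.0159), LINC00678 differed by 1.62 ± 0.40 and LINC01108 by 3.40 ± 0.70. LINC01356 (-1.31 ± 0.27) was called lower, and LNCPRESS1 had 1954 and 1672 TPM in PE and 2021 and 1512 TPM in CBNE (0.05 ± 0.25), with overlapping libraries.

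**Figure D3:**
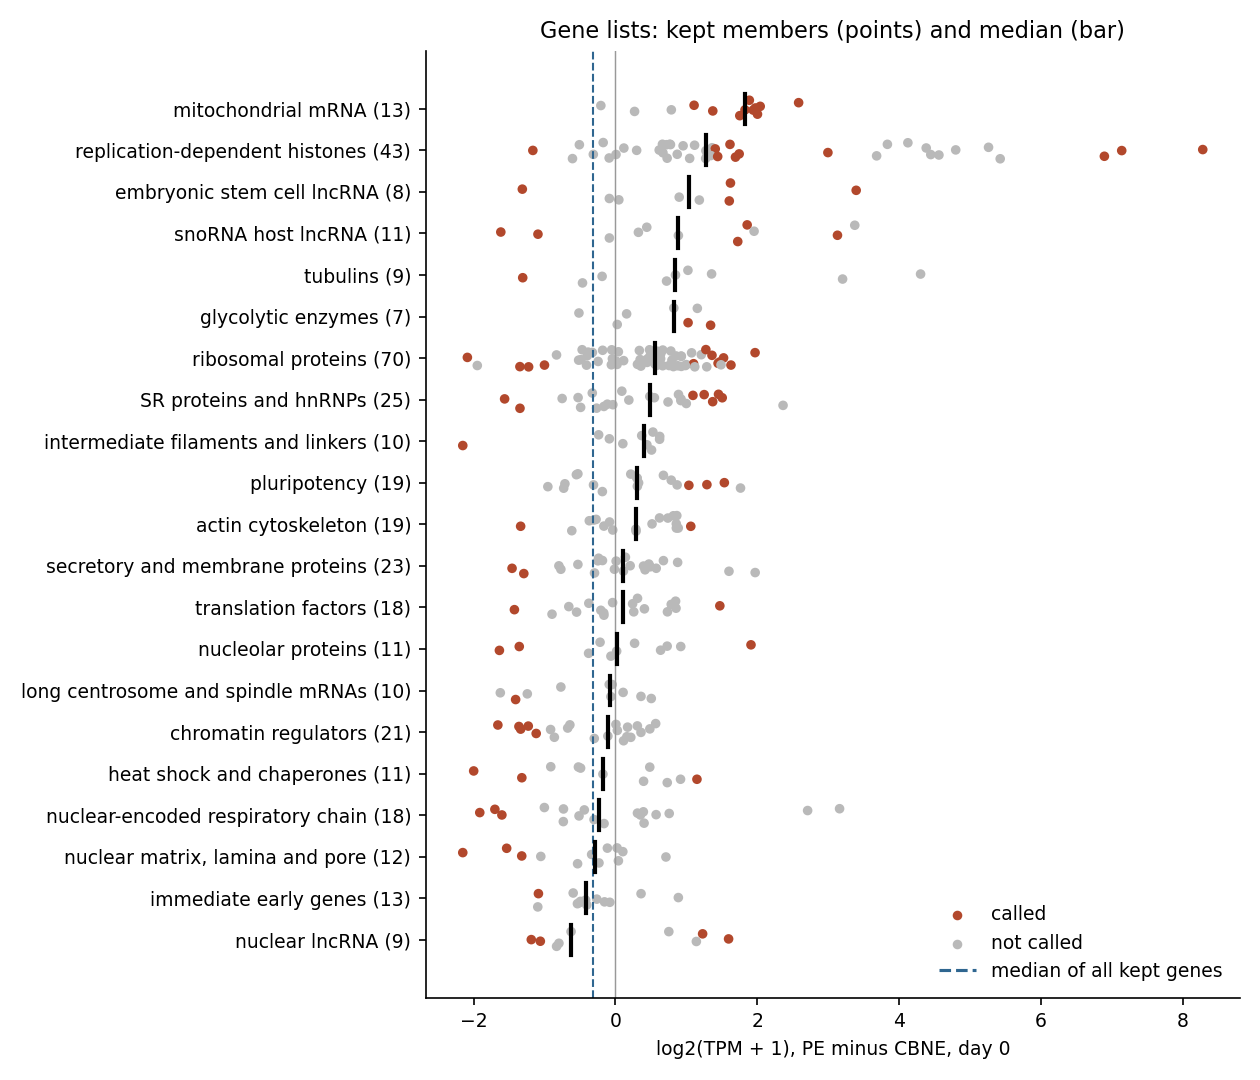
Difference PE minus CBNE on the log2(TPM + 1) scale for the kept members of 21 gene lists (points, red where called, number kept in parentheses), with the list median as a black bar and the median of all kept genes, -0.31, as a dashed line. Mitochondrial mRNA (median 1.83) and histones (1.28) have the highest medians of the lists drawn.

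Where a list had 0 calls in a direction, limma's unadjusted p was under 0.05 for 0 mitochondrial mRNAs, 0 glycolytic enzymes, 2 pluripotency genes and 1 gene of U3, U8 and U13 that were lower. It was under 0.05 for 0 chromatin regulators, 0 centrosome and spindle mRNAs, 0 genes of U3, U8 and U13, 1 lamina and pore gene, 1 tubulin, 1 intermediate filament gene, 1 nuclear-encoded respiratory chain gene, 1 immediate early gene and 3 secretory and membrane proteins that were higher. The 4 kept spliceosomal snRNA genes and 3 kept genes of the 45S ribosomal DNA unit had 0 in either direction. The lists that follow held 1 to 3 calls each, beside 3.87% called higher and 20.4% lower among all kept genes. Of 19 pluripotency genes 3 were called higher and 0 lower, among them the RNA-binding protein gene LIN28A (1.04 ± 0.23) and the transcription factor gene SALL4 (1.29 ± 0.28). L1TD1, an RNA-binding protein gene, had 824 and 780.1 TPM in PE and 1355 and 1274 TPM in CBNE (-0.71 ± 0.21, adjusted p = 0.0559). Among 11 chaperones HSP90AB1 had 477 and 407 TPM in PE, against 188 and 209 TPM in CBNE (1.15 ± 0.23), whereas HSPA4, with 55.5 and 51.5 TPM in PE, against 223 and 210.1 TPM in CBNE (-2.0 ± 0.23), and the chaperonin subunit CCT6A (-1.32 ± 0.23) were called lower. Of 18 kept nuclear-encoded respiratory chain genes 0 were called higher and 3 lower, on 5 to 6 estimated reads each, namely ATP5MC2 (-1.91 ± 0.37), COX5A (-1.70 ± 0.25) and NDUFS5 (-1.6 ± 0.26). Those 3 are 16.7% of the list, against 20.4% of all kept genes, and the list median was -0.23. Secretory and membrane proteins had 2 of 23 called lower, CDH1 (-1.46 ± 0.28) and SLC3A2 (-1.29 ± 0.32). The immediate early gene CCN2, with 676 and 578 TPM in PE, against 1593 and 1107 TPM in CBNE (-1.09 ± 0.27), was the 1 of 13 called, and EGR1 had 950.0 and 644 TPM in PE and 1269.7 and 956 TPM in CBNE. Of 10 long centrosome and spindle mRNAs CKAP5 (-1.41 ± 0.29) was called lower.

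The genes that follow had a mean of 100 TPM or more and were called and separated on more than 10 estimated reads. Of such genes, the 12 with the largest differences in each direction were taken. On the PE side they were mostly noncoding or mitochondrial, and the CBNE side held both coding and noncoding genes. Of all 3409 kept genes 2849 were protein-coding, a larger share than on either side. Higher in PE, beside MT-ATP8, MT-CYB, MT-CO1, MT-ND4, H2AC14 and SNHG1, were 3 pseudogenes, 2 lncRNAs and 1 coding gene. POU5F1P3, a processed pseudogene of the pluripotency factor POU5F1, had 259 and 143 TPM in PE, and was listed at 0 in both CBNE libraries. POU5F1 itself, below the level filter, had 18.6 and 18.8 TPM in PE, against 2.06 and 0 TPM in CBNE. In CE the pseudogene averaged 526 ± 22.8 TPM (SD, n = 2), against 132 and 127 TPM for POU5F1. Shared sequence of the pair was not measured here, so their reads may not be told apart. ZNF204P had 201 and 167 TPM in PE, against 28.1 and 32.8 TPM in CBNE (2.55 ± 0.26), AL445670.1 444 and 731 TPM in PE, against 84.2 and 147 TPM in CBNE (2.34 ± 0.38), and the lncRNAs AC009446.1 and AL392023.1 differed by 2.89 ± 0.37 and 2.15 ± 0.42. CITED4, a transcriptional coactivator, had 212 and 117 TPM in PE, against 25.6 and 59.8 TPM in CBNE (1.98 ± 0.51).

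On the CBNE side, beside AL357562.1, AC006064.4 and MT-RNR2, stood the lncRNA AC010186.3, with 57.8 and 17.5 TPM in PE, against 249 and 257 TPM in CBNE (-2.95 ± 0.58), and 7 coding genes, and 1 further gene of the 12 lies on the Y chromosome and is not described. The proteasome subunit PSMD12 had 44.3 and 27.9 TPM in PE, against 229 and 218 TPM in CBNE (-2.63 ± 0.30, adjusted p = 0.0127). PIP5K1A, a phosphoinositide kinase, had 60.1 and 53.2 TPM in PE, against 299 and 299 TPM in CBNE (-2.38 ± 0.23), and TMEM41B, a lipid scramblase of the endoplasmic reticulum, 51.4 and 32.5 TPM in PE, against 211 and 205 TPM in CBNE (-2.32 ± 0.30). KANSL2, of a histone acetyltransferase complex, had 38.8 and 28.8 TPM in PE, against 172 and 168 TPM in CBNE (-2.31 ± 0.27). The mitochondrial outer membrane protein MTCH1 had 101 and 104 TPM in PE, against 572 and 451 TPM in CBNE (-2.30 ± 0.24). HELLS, a chromatin remodeller needed for DNA methylation, had 71.0 and 50.4 TPM in PE, against 296 and 284 TPM in CBNE (-2.26 ± 0.26), and G0S2, an inhibitor of fat breakdown, 26.2 and 63.6 TPM in PE, against 174 and 203 TPM in CBNE (-2.17 ± 0.44). In CBNE the pairs of values of PSMD12, PIP5K1A, TMEM41B, KANSL2 and HELLS lay close together, far above both PE libraries.

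The protein-coding genes that were lower in PE tended to be long in the genome. The 2836 nuclear protein-coding genes kept were ordered by span, from first to last annotated base, into 4 bins of 709. The shortest bin (312 to 8696 bases) had a median difference of 0.30 with 58 genes called higher and 25 lower. The next bin had -0.14 (16 higher, 91 lower), the one after -0.56 (8 higher, 204 lower) and the longest (49083 bases or more) -0.96, with 2 called higher and 292 lower. Scaled to a common median, the 4 bins had medians of 0.69, 0.26, -0.17 and -0.56. As shares, 8.18% of the shortest bin and 0.282% of the longest were called higher, and 3.53% and 41.2% lower. Spearman's rho of span with the difference was -0.48 across these genes, given as a description since genes share libraries and are not independent. Among genes with 40 or more estimated reads alone, 10.2% of the shortest bin were called higher and 0.847% lower, whereas of the longest 0% were called higher and 30.8% lower.

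Per library, the shortest bin held 42.6% and 46.1% of the summed TPM of these genes in PE, against 32.8% and 33.8% in CBNE. The longest bin held 13.1% and 11.7% in PE, against 19.3% and 19.8% in CBNE. Neither overlapped between the extracts. The same bins in the day 3 and day 5 libraries, which the choice of genes did not use, also did not overlap: the longest held 13.4% and 13.2% in PE, against 18.2% and 18.6% in CBNE on day 3, and 13.2% and 13.4% in PE, against 26.1% and 27.0% in CBNE on day 5. For comparison the longest bin held 20.7% and 21.2% in day 0 SNE and 4.68% and 4.83% in CE.

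**Figure D4:**
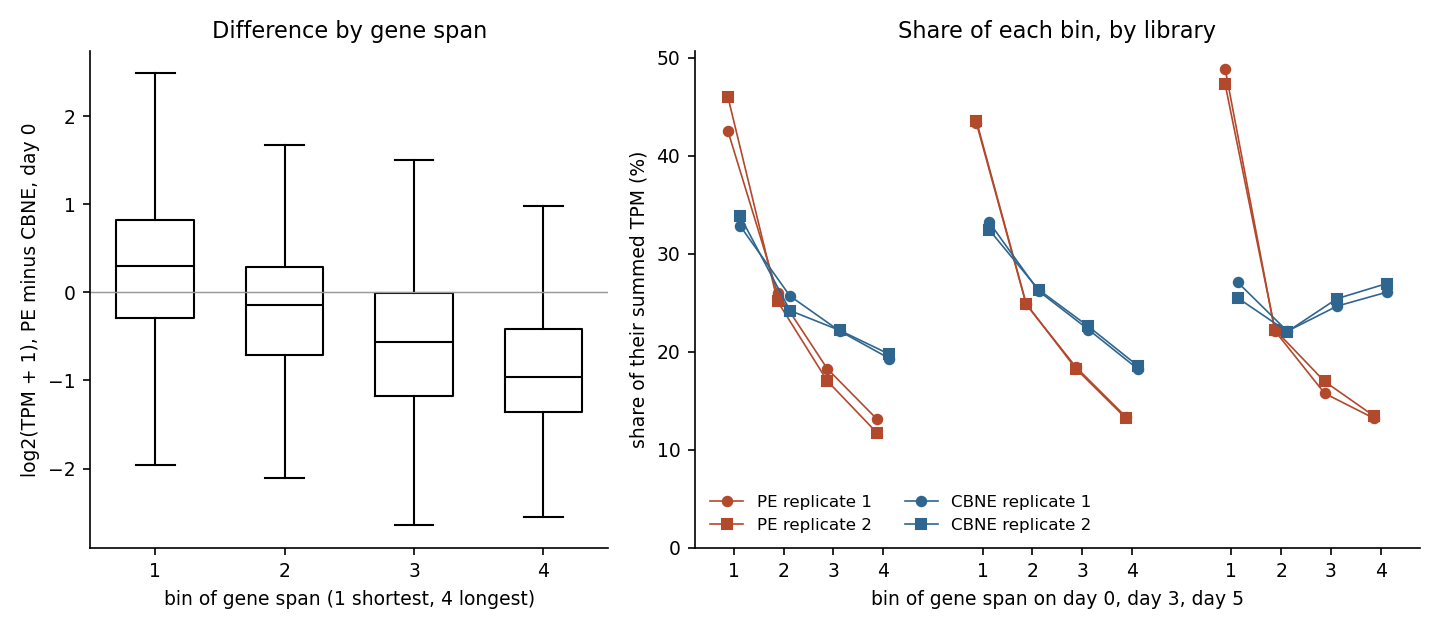
Left, difference PE minus CBNE on day 0 for 2836 nuclear protein-coding genes in 4 bins of gene span (box, the middle 50% with the median; points beyond the whiskers are not drawn), with medians of 0.30, -0.14, -0.56 and -0.96. Right, share of each bin in the summed TPM of these genes in every PE (red) and CBNE (blue) library of days 0, 3 and 5, where PE is above CBNE in the shortest bin and below it in the longest on each day.

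Span goes with other properties of a gene. Base composition moved with the day 0 difference too. Of 4 bins by G and C content of the longest transcript, the poorest (30.2% to 45.9%) had a median of -0.95 and the richest 0.05. On day 3 these medians were -0.44 and -0.59, and on day 5 -0.22 and 0.30. The poorest bin held 14.7% and 13.5% of summed TPM in PE, against 19.4% and 21.1% in CBNE, on day 0. On day 3 it held 19.2% and 18.6% in PE, against 16.9% and 17.1% in CBNE, the other way. On day 5 it held 20.6% and 24.5% in PE, against 26.5% and 27.3% in CBNE. Within 3 bins of G and C content the shortest span bin had medians of 0.52, 0.36 and 0.17 and the longest -1.15, -0.82 and -0.32, from poorest to richest, so the order by span held in each of the 3. The length of the longest transcript moved less, with medians of -0.11 in the shortest bin and -0.51 in the longest. The 113 genes with 1 exon had a median of 0.67, and the 72 of them that are not histones 0.44. The genes were also ordered by the ratio of CE to SNE in the deep day 0 libraries, in which neither PE nor CBNE takes part. The most cytoplasmic of 4 bins had a median of 0.17, with 47 genes called higher and 45 lower, and the least cytoplasmic -0.79, with 9 higher and 237 lower. Whether an annotated transcript retains an intron made little difference, with medians of -0.34 for 1856 genes that have one and -0.31 for 980 that do not.

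Alu elements, the commonest short repeats of the human genome, descend from 7SL RNA, and 285 of the 2836 genes (10.0%) had an annotated transcript with a match of at least 80 bases to RN7SL3. Their median difference was -0.88, with 4 called higher and 113 lower (39.6%), against -0.27, 80 and 499 (19.6%) for the 2551 others. Without them the shortest and longest span bins still had medians of 0.30 and -0.92.

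Days 3 and 5, when the same line was under mesoderm differentiation with BMP4 and then bFGF, gave separate PE and CBNE libraries for the same 3409 genes. On day 3 440 genes (12.9%) were called higher in PE and 829 (24.3%) lower, and on day 5 802 (23.5%) higher and 654 (19.2%) lower. Of the 132 genes higher on day 0, 91 were called higher on day 3 and 94 on day 5, and 1 was called lower on each day, CITED4 on day 3. Of the 694 lower on day 0, 443 and 439 were called lower and 5 and 7 higher. The median gene stood at -0.48 on day 3 and 0.23 on day 5, and day 3 and day 5 PE libraries were deeper, with 198426 to 471910 estimated reads, while CBNE held 19599 to 90433.

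Several RNAs described above kept their direction. MT-CO1 differed by 3.30 on day 3 and 1.70 on day 5 and MT-CYB by 2.95 and 2.30. AL357562.1 differed by -3.33 and -5.16, with 590.4 and 266 TPM in PE, against 13913 and 14543 TPM in CBNE on day 5. HELLS (-1.74 and -2.12), PSMD12 (-2.78 and -1.94) and PIP5K1A (-2.53 and -3.05) were called lower on both days. NCL (1.05 and 2.29), GAPDH (1.75 and 2.86) and MALAT1 (1.93 and 2.37) were called higher on both.

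The change of the difference from day 0 was tested as an interaction over the 12 PE and CBNE libraries. It was called upward for 144 genes (4.22%) and downward for 24 (0.704%) on day 3, and upward for 672 (19.7%) and downward for 122 (3.58%) on day 5. Among RNAs that moved downward, the U3 gene SNORD3A had 16053 and 10319.7 TPM in PE, against 211991 and 183838 TPM in CBNE on day 5, a difference of -3.94 and a change from day 0 of -3.46 ± 0.34 (adjusted p = 0.000607). RN7SL3, whose day 0 libraries overlapped, differed by -1.98 on day 5 (change -1.98 ± 0.32, adjusted p = 0.00473), and FP236383.3 by -3.31 (change -3.79 ± 0.47, adjusted p = 0.00165). MT-ND5 and MT-ND6, not called on day 0, were called higher on day 3 at 2.06 and 3.97, with changes of 2.26 ± 0.26 and 3.18 ± 0.47 (adjusted p = 0.00328 and 0.0108). NPM1, called lower on day 0, differed by -0.34 on day 3 and 0.33 on day 5 and was called on neither. On day 5 snoRNA took 1.54% ± 0.41 of summed TPM in PE and 23.4% ± 1.82 in CBNE (SD, n = 2 each), and the part of this share in the other changes was not tested.

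**Figure D5:**
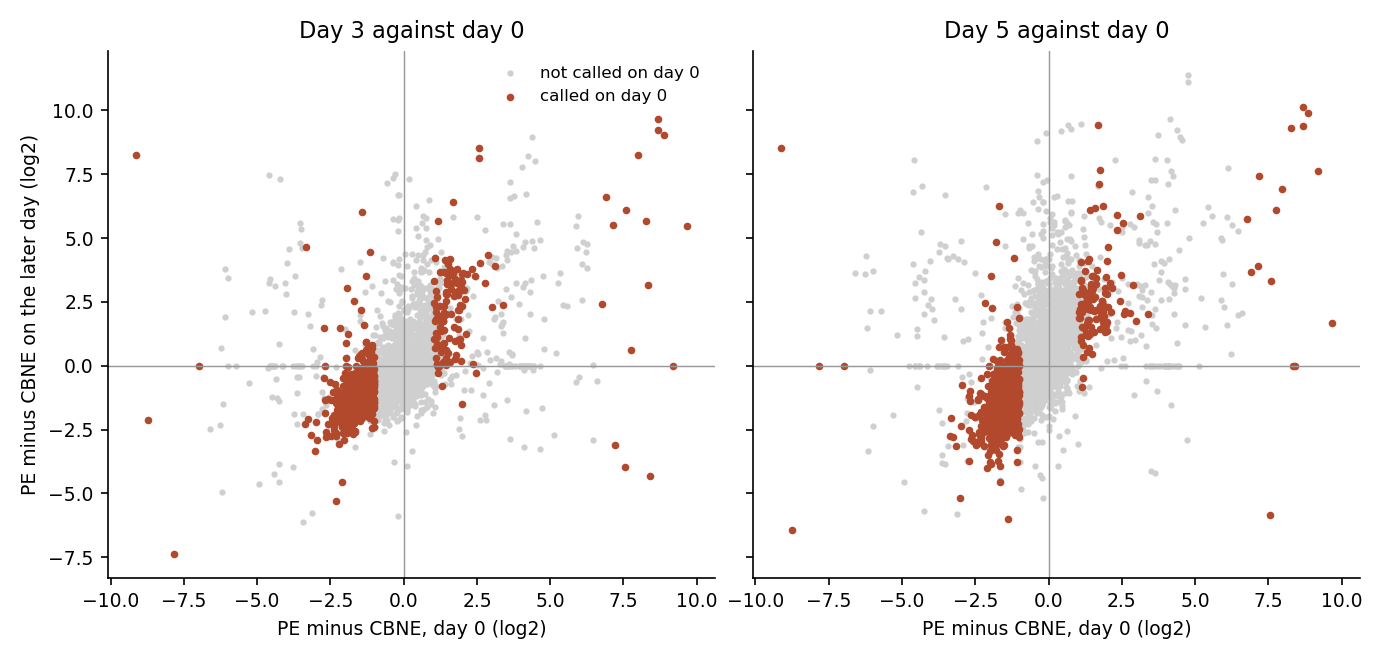
Difference PE minus CBNE on day 3 (left) and day 5 (right) against that on day 0, on the log2(TPM + 1) scale, for the 3409 kept genes, with genes called on day 0 in red. Most red points have the same sign on both days.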

How the data were processed

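Total RNA of 36 libraries was measured as TPM in the deposited table, a unit read from the values, since libraries sum to about the same total and the file header names none. Per the submitters' processing notes, the authors used Salmon 1.3.0, featureCounts 1.6.2, the aligner HISAT2 2.0.5 and GATK with the hg38 genome, and which of these made the TPM values, and whether counting used strand, is not given in the sources used here. Libraries were grouped by their labels, and 4 polyA libraries were not used here.

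Genes with a mean of at least 30 TPM over the 4 day 0 PE and CBNE libraries were tested on log2(TPM + 1) with limma 3.58.1 in R 4.3.3 (empirical Bayes with trend, robust), on the 4 libraries alone, with Benjamini-Hochberg adjustment over all 3409 genes. Every adjusted p in the text is limma's. A fold on this scale understates the change of low genes. Days 3 and 5 used the same genes, and the change with day was an interaction over 12 libraries. Read numbers were estimated from TPM steps and used only to describe depth and to pass over thin genes, and TPM itself carries no counts, so no counting interval is given. Code for the tests was checked on simulated data.

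Named genes were the 12 largest called and separated differences in each direction at 100 TPM or more and over 10 estimated reads, up to 4 most abundant members of each list, and some fixed genes. Members of small counts, and others named for a role, were added after their values were seen. The comparison and the lists were chosen with earlier results of these data known. Gene positions, transcripts and sequences came from GENCODE 29 (57939 of 57939 IDs matched), miRNA arms from RefSeq, and alignments from BLAST 2.17.0. Alternatives covered pseudocount, filter, scaling, variance prior, library set, replicate block and each library left out. Some items are not reported here.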

Additional observations from a re-analysis of the deposited data

Results flagged for a closer look

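The difference between PE and CBNE was not the same on every day for the RNAs below, each past the interaction test of limma (adjusted p under 0.05 and a change of 1 or more). Values are the day 3 or day 5 difference minus that of day 0, on the log2(TPM + 1) scale, and a positive one means that PE stood higher relative to CBNE than on day 0. Apart from the mitochondrial mRNAs, which are given in full, these are genes picked for naming and not all that passed. The tests of days 3 and 5 share the day 0 libraries. Mitochondrial mRNAs changed on day 3 by 1.29 for MT-CO1, 1.42 for MT-CO2, 1.64 for MT-ATP6, 1.16 for MT-ND1, 2.30 for MT-ND2, 3.04 for MT-ND3, 2.26 for MT-ND5 and 3.18 for MT-ND6. Mitochondrial mRNAs changed on day 5 by 1.19 for MT-ND2 and 2.26 for MT-ND6. Histone genes changed on day 3 by 2.74 for H1-5. Histone genes changed on day 5 by 2.66 for H2BC12, 5.94 for H2BC9 and 7.73 for H4C3, and the last 2 were listed at 0 in both day 5 CBNE libraries, so their sizes depend on the pseudocount. Ribosomal protein and translation genes changed on day 3 by 1.93 for EIF2S3, 1.35 for RPL14, 1.21 for RPL19 and -1.78 for RPS15. Ribosomal protein and translation genes changed on day 5 by 2.15 for EIF2S3, 2.05 for EIF4A2, 2.86 for RPL14, 1.30 for RPL19, 1.74 for RPL34 and 1.85 for RPL7L1. Structured RNAs, ribosomal DNA genes and AL357562.1 changed on day 5 by -2.28 for AC018638.5, -2.13 for AL357562.1, -3.79 for FP236383.3, -4.27 for FP671120.4, -4.07 for MIR3648-2, -2.17 for MIR4787, -1.98 for RN7SL3, -3.46 for SNORD3A, -3.87 for SNORD3B-1, -3.99 for SNORD3B-2 and -4.18 for SNORD3C. Long noncoding RNAs changed on day 3 by 7.99 for AC006064.4, 2.21 for NORAD and 1.90 for SNHG5, and AC006064.4 was listed at 0 in both day 3 CBNE libraries. Long noncoding RNAs changed on day 5 by 4.33 for LNCPRESS1, 1.14 for MALAT1, 1.89 for NEAT1, 1.10 for NORAD and 2.62 for SNHG16, and LNCPRESS1 was listed at 0 in both day 5 CBNE libraries. Splicing and nucleolar protein genes changed on day 3 by 2.41 for HNRNPK and 1.02 for NPM1. Splicing and nucleolar protein genes changed on day 5 by 1.64 for HNRNPA2B1, 2.47 for HNRNPK, 1.69 for NPM1 and 2.28 for SRSF1. The other genes changed on day 3 by 1.41 for ENO1 and 1.52 for HSP90AB1. These genes changed on day 5 by 1.62 for CCT6A, 1.25 for CKAP5, -1.15 for COX5A, 1.11 for EGR1, 1.78 for ENO1, 1.52 for GAPDH, 1.89 for HSP90AB1, 1.17 for SALL4, 1.54 for SLC3A2, 1.01 for TET1 and 1.44 for VIM.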

How the results depend on the processing

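How many genes were called turned on the processing, counted as higher and lower in PE than in CBNE against 132 and 694. A pseudocount of 30 TPM gave 90 and 269, and no filter 24 and 12 of 19887. Filters at 100 and 300 TPM gave 53 and 122 of 896, and 30 and 13 of 210. A common median gave 276 and 329, of which 124 and 329 were shared with the calls above, and quantile normalisation 214 and 305. All 36 libraries in the fit gave 264 and 862, and a prior without trend 83 and 490. A filter at 40 estimated reads, chosen after seeing the data, gave 37 and 40 of 368. Leaving out 1 library gave 13 to 183 higher and 0 to 275 lower, the lowest without PE replicate 2. With a common median 446 genes were called lower on day 3, against 829. With the filter set over 12 libraries the change with day was called upward for 230 genes on day 3 and 1020 on day 5. With totals that leave out mitochondrial genes, the differences in share, in percentage points, became 1.98 for nuclear protein-coding RNA, 3.04 for lncRNA, -2.82 for snoRNA, 1.92 for misc_RNA, -8.59 for TEC and -0.759 for pseudogenes. Of the 112 named genes 0 turned direction with a call, and 14 changed sign without a call on either side.

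The labels do not say whether replicate numbers pair the extracts. Deviations of same-numbered PE and CBNE libraries correlated at 0.0854. That cannot decide the question, because with few reads per gene such a correlation is drawn toward 0. A fit with the replicate block called 108 genes higher and 551 lower. Depth limits single genes most, with 1474 kept genes on under 10 estimated reads.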
